A study of Mus musculus with 6 samples.

Results

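The mammalian circadian clock is a feedback loop of transcription factors, and 10 of its genes were followed here by name in the deposited expression table: Per1, Per2, Per3, Cry1, Cry2, Nr1d1, Nr1d2, Dbp, Tef and Arntl. All 10 were found among the 21878 genes of the table, and all 10 passed the filter on low values, which 10274 genes passed. The cells were NIH3T3, an immortalised mouse embryo fibroblast line, labelled as carrying a radiation injury. They received either exosomes, named as plasma-derived in the series title, or phosphate-buffered saline (PBS), and both groups were sampled at the 72 h time point with 3 libraries each. The labels give no radiation dose, no clock-setting step and no statement that libraries came from separate cultures, so p-values here speak only of library-to-library spread, part or all of which may be technical. Each group was sampled at 1 time point, so rhythm, phase and amplitude were not measured.

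In the clock, ARNTL (also called BMAL1) pairs with CLOCK and switches on genes through short DNA motifs called E-boxes. Among these genes are the Per and Cry repressors, which close the main loop by blocking ARNTL and CLOCK, and Nr1d1 and Nr1d2, whose products REV-ERB alpha and REV-ERB beta repress Arntl through motifs called ROREs. Dbp and Tef encode related activators that bind D-box motifs and carry the rhythm to output genes. Fibroblast lines such as NIH3T3 hold such a clock in every cell, and serum or glucocorticoid hormones set the cells of a dish to the same phase.

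The REV-ERB genes Nr1d1 and Nr1d2 and the cryptochrome gene Cry2 fell in exosome-treated cells, Dbp rose, and the other 6 genes did not pass the test. Nr1d1 changed most: its mean level fell by 53.5% in exosome-treated cells relative to PBS-treated cells. Of the 10 genes 3 were lowered and 1 was raised, while over all tested genes 18.4% were lowered, 25.4% were raised and 43.8% were called in either direction. The share of clock genes called is thus near that of all genes, and the counts give no ground to set the clock genes apart from other genes. The exosome and PBS values did not overlap for 5 of the 10 genes, 2 higher with exosomes (Per1 and Dbp) and 3 lower (Cry2, Nr1d1 and Nr1d2), where over all tested genes 55.6% did not overlap, 32% higher and 23.5% lower. The median log2 change was 0.06 over the 10 genes and 0.04 over all tested genes, and the median size of change was 0.17 over the 10 genes and 0.15 over all tested genes. Levels are FPKM (fragments scaled to transcript length and library size, a unit inferred here as the column headers say only expression). Changes are exosomes over PBS on log2(FPKM + 1) ± SE from limma, a scale that understates the change of low genes, with Benjamini-Hochberg adjustment over all tested genes and a threshold of 0.05. By estimate each library had between 18800000 and 22000000 counted reads. A set of 10 fibroblast markers summed to 6750 to 7020 FPKM with exosomes and 5920 to 6170 with PBS. Of these 9 were tested, 4 rose (Col1a1, Col1a2, Col3a1 and Pdgfra, by 0.57 to 0.80 in log2), 3 fell (Pdgfrb, Fn1 and S100a4) and 2 did not pass (Vim and Thy1), while Fap was near 0 in both groups. Epithelial and endothelial markers summed to 0.466 to 0.531 FPKM with exosomes and 0.567 to 0.754 with PBS, with 1 of the 9 (Krt5) at 0 throughout. Leukocyte markers summed to 1.85 to 2.56 FPKM with exosomes and 3.47 to 4.83 with PBS, and among them Cd3e was at 0 in every library. Most of that gap lay in Csf1r, at 0.295 ± 0.0752 FPKM with exosomes and 1.92 ± 1.24 with PBS (SD, n = 3 each), which was below the filter, while Cd68 was 1.81 ± 0.33 with exosomes and 1.90 ± 0.641 with PBS. Red cell and platelet markers summed to 3.86 to 4.60 FPKM with exosomes and 2.63 to 4.99 with PBS, with 2 of the 7 in the table (Alas2 and Gp1ba) at 0 throughout. The only one tested, Itga2b, rose to 2.80 ± 0.116 FPKM with exosomes, against 1.90 ± 0.409 with PBS (limma adjusted p = 0.00862). The part of any marker list in the clock gene levels was not tested. In bulk RNA fewer cells that express a gene and less RNA per cell cannot be told apart.

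**Figure D1:**
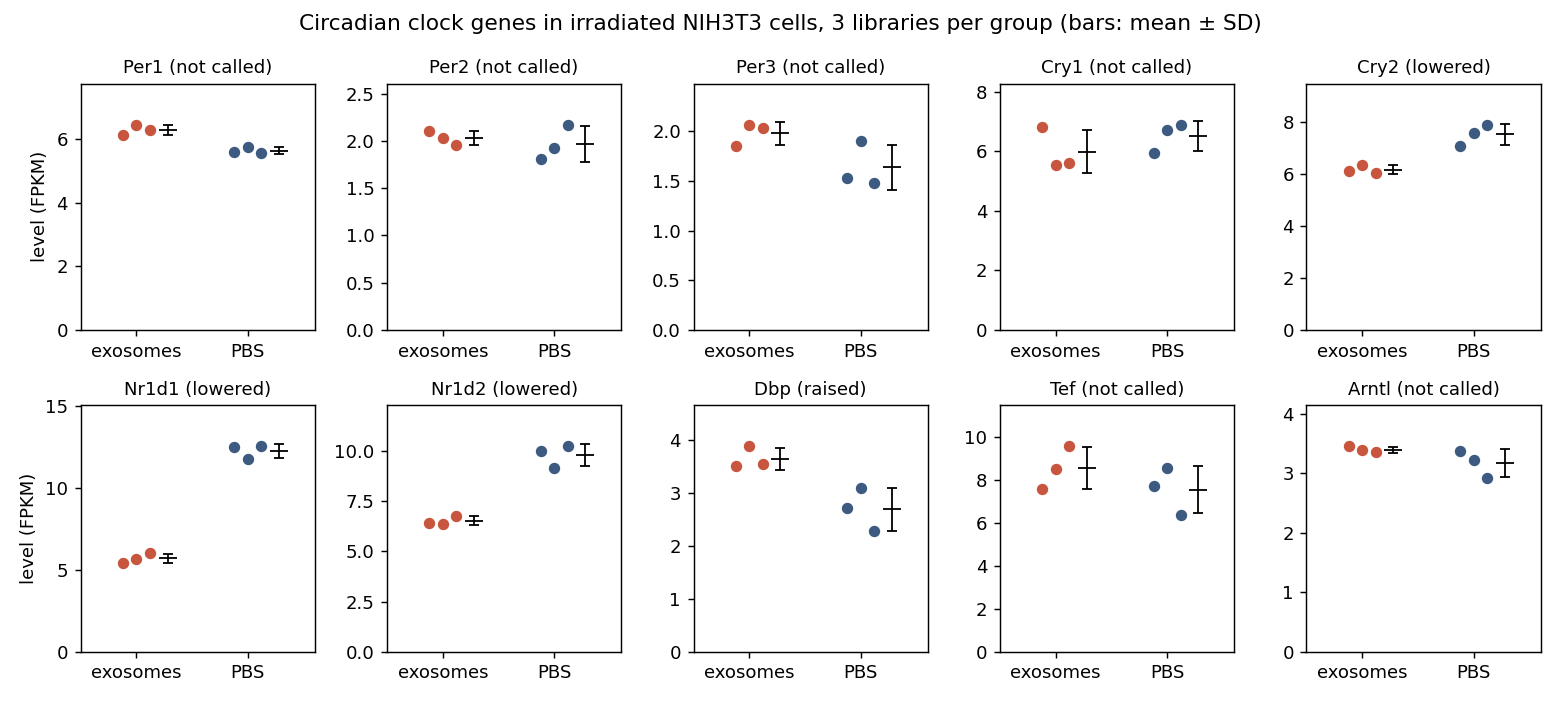
Level in FPKM (vertical axes, from 0) of each clock gene in the 3 exosome and 3 PBS libraries, with the mean ± SD beside the points. The groups stand apart for Nr1d1, Nr1d2, Cry2 and Dbp, and also for Per1, which missed the threshold.

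The promoters of the 4 called genes are shown because clock factors are known to act through short motifs in such windows. They come from RefSeq on GRCm38.p6 and run from 250 bases before the start site to 50 after it, on the strand of the gene. Of the 10 genes 9 had such a promoter, with 12 start sites in all, and none was held for Per2. Capitals mark matches on either strand to CACGTG (E-box), CACGTT (a variant called E'-box), TAGGTCA or TGGGTCA (RORE core), TTATGTAA or TTACGTAA (D-box) and TGACGTCA (CRE, the site of the cAMP response). Nr1d1 at chr11:98775328-98775627 (minus strand), Nr1d2 at chr14:18239057-18239356 (minus), Cry2 at chr2:92434020-92434319 (minus) and Dbp at chr7:45704997-45705296 (plus) read as follows.
Nr1d1: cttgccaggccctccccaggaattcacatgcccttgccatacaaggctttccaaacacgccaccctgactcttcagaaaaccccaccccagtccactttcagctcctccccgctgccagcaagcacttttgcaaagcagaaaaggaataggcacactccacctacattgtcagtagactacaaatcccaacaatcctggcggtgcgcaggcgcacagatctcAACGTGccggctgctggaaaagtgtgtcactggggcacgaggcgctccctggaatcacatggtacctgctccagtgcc
Nr1d2: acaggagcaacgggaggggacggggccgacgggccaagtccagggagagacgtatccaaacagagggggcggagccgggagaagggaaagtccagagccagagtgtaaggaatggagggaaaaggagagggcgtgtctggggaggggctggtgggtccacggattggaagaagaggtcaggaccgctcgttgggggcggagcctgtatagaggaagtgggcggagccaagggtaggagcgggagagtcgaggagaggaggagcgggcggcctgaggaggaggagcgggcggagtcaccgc
Cry2: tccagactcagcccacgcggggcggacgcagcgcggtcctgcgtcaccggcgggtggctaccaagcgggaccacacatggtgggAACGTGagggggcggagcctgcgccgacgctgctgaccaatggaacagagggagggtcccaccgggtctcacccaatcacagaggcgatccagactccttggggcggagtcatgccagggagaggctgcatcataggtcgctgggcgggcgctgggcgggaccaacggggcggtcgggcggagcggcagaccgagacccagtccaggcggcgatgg
Dbp: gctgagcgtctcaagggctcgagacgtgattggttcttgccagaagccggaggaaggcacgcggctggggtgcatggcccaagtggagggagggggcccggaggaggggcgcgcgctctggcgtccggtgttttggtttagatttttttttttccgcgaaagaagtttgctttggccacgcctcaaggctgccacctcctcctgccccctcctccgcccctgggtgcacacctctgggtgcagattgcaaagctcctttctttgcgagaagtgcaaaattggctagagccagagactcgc
Nr1d1 and Cry2 each held 1 E'-box, printed as AACGTG because it lies on the other strand and starting at positions -28 and -166 from the start site, and the windows of Nr1d2 and Dbp held none of these letters. An E-box was found in 4 of the 12 windows (Per1, Cry1 and Tef, the last in 2), and in 7.17% of 32544 distinct mouse promoter windows. The E'-box was found in 3 of the 12 (Cry1, Cry2 and Nr1d1), and in 4.71% of all windows. The D-box was found at 2 positions in 1 of the 12, that of Per3, and in 1.05% of all windows. The CRE was found in 0 of the 12 windows of these genes and in 1.8% of all. A match describes letters only and is no evidence of binding.

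Nr1d1 encodes REV-ERB alpha, a heme-binding nuclear receptor that represses Arntl and many metabolic genes. Its level was 5.42, 5.66 and 6.00 FPKM in exosome replicates 1 to 3, against 12.5, 11.8 and 12.5 FPKM in PBS replicates 1 to 3. Every exosome library was thus below every PBS library, and the lowest PBS value was far above the highest exosome value. The log2 change was -0.99 ± 0.06 (limma adjusted p = 2.39e-06), which ranked 78 among the falls of all 10274 tested genes. The exosome libraries held 287, 347 and 338 reads of Nr1d1 and the PBS libraries 684, 684 and 673. These whole reads per library were recovered from the mean normalized count of each group in the deposited table. On the reads the log2 change was -1.19 ± 0.08 (limma voom adjusted p = 2.82e-11), a larger fall than on log2(FPKM + 1). The authors' deposited table gives a fold of 0.437 with an adjusted p of 1.57e-31.

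Nr1d1 lies tail to tail with Thra, the thyroid hormone receptor alpha gene on the opposite strand. In GENCODE M21 (GRCm38) 263 exon bases of Nr1d1 (8.5% of its exon bases) are shared with Thra. The library kit keeps strand, but the sources used here do not say if counting used it, so reads of the shared stretch may be credited to either gene. Thra was 33.0 ± 1.37 FPKM with exosomes and 26.6 ± 1.92 with PBS (SD, n = 3 each), a rise of 0.30 ± 0.06 in log2 (limma adjusted p = 0.00299). Thra therefore moved in the direction opposite to Nr1d1, and its part in the value of Nr1d1 was not tested.

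Nr1d2 encodes REV-ERB beta, which shares targets with REV-ERB alpha. Its level was 6.43, 6.35 and 6.77 FPKM with exosomes, against 10.02, 9.19 and 10.24 FPKM with PBS, again without overlap. Mean FPKM fell by 33.6% (log2 change -0.52 ± 0.06, limma adjusted p = 0.000126), and the authors' deposited table gives a fold of 0.653. In every library pair of these groups Nr1d1 was lower relative to Nr1d2 with exosomes: the ratio of Nr1d1 to Nr1d2 was 0.842, 0.891 and 0.886 with exosomes and 1.25, 1.28 and 1.22 with PBS. All 3 exosome ratios were below 1 and all 3 PBS ratios above it (difference -0.52 on the log2 scale, exact permutation test, two-sided p = 0.1, the smallest p that 3 against 3 libraries allow). Nr1d1 ranked highest of the 10 genes by FPKM in PBS-treated cells and sixth in exosome-treated cells.

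Among the genes most like Nr1d1 in level over the 6 libraries were Cyr61, a matricellular protein gene, Plaur, the urokinase receptor gene, Maff, a small Maf factor gene, and Tonsl, with Pearson r of 0.9986 to 0.9992 on log2(FPKM + 1). Their mean levels were lower with exosomes, and 801 tested genes had an r over 0.95, with 6 libraries in 2 groups, so that r largely reflects the difference between groups.

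The cryptochromes are light-insensitive repressors in mammals that block ARNTL and CLOCK directly. Cry2 was 6.09, 6.34 and 6.02 FPKM with exosomes and 7.07, 7.58 and 7.89 FPKM with PBS. All exosome values lay below all PBS values, by a small margin: mean FPKM fell by 18.1% (log2 change -0.25 ± 0.06, limma adjusted p = 0.00623), and the authors' deposited table gives a fold of 0.765 (adjusted p = 0.000103). Cry1, its paralog, was 6.82, 5.54 and 5.62 FPKM with exosomes, against 5.95, 6.72 and 6.90 with PBS. These ranges overlapped, and the log2 change of -0.11 ± 0.08 did not pass (limma adjusted p = 0.307). Although Cry2 passed and Cry1 did not, their ratio, Cry2 to Cry1, overlapped between groups. It was 0.893, 1.146 and 1.07 with exosomes and 1.19, 1.13 and 1.14 with PBS, so the changes of the paralogs were not shown to differ. The exact permutation test (two-sided p = 0.3) could not decide this, since 0.1 is the smallest p that 3 against 3 libraries allow.

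The Period genes encode the partners that carry the cryptochromes into the nucleus, and Per1 and Per2 are also induced directly by serum, cAMP and glucocorticoids. Per1 was 6.13, 6.46 and 6.29 FPKM with exosomes and 5.60, 5.76 and 5.57 FPKM with PBS. The groups did not overlap, but the log2 change of 0.13 ± 0.05 missed the threshold (limma adjusted p = 0.0611). On normalized whole reads Per1 was 1023, 1072 and 984 with exosomes and 975, 1054 and 1004 with PBS. There the groups did overlap, with a log2 change of 0.02 ± 0.06 (limma voom adjusted p = 0.787), so the small separation in FPKM is not seen in the reads. Per2 was 2.11, 2.04 and 1.96 FPKM with exosomes, against 1.80, 1.92 and 2.17 with PBS. The log2 change was 0.03 ± 0.07 (limma adjusted p = 0.72), and its sign was negative on the reads (-0.08 ± 0.09). Per3, which is dispensable for the core loop in mice, was 1.85, 2.07 and 2.03 FPKM with exosomes and 1.53, 1.90 and 1.48 with PBS, a change of 0.18 ± 0.08 that did not pass (limma adjusted p = 0.0907). Only PBS replicate 2 overlapped the exosome range of Per3, and without it the gene was called raised (0.25, adjusted p = 0.0227).

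Dbp, the D-box activator whose transcript has one of the deepest rhythms in mouse tissues, was the gene that rose. It was 3.50, 3.88 and 3.55 FPKM with exosomes and 2.71, 3.08 and 2.27 FPKM with PBS. The groups did not overlap, mean FPKM was 35.4% higher with exosomes, and the log2 change was 0.34 ± 0.09 (limma adjusted p = 0.0107). Dbp had the fewest reads of the 10 genes: 198, 260 and 231 with exosomes and 161, 186 and 134 with PBS, so that counting error alone was 8.6% in the shallowest library. The authors' deposited table gives a fold of 1.32 (adjusted p = 0.0225). In GENCODE M21 539 exon bases of Dbp (18.0%) overlap Sphk2 on the opposite strand, a sphingosine kinase gene at 5.29 ± 0.0738 FPKM with exosomes and 4.91 ± 0.0848 with PBS (SD, n = 3 each; limma adjusted p = 0.184).

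Tef, a PAR bZIP factor of the same family as Dbp, was 7.56, 8.49 and 9.54 FPKM with exosomes, against 7.68, 8.55 and 6.36 with PBS. Its libraries spread widely in both groups, and the change of 0.16 ± 0.10 did not pass (limma adjusted p = 0.23). The ratio of Dbp to Tef was 0.463, 0.456 and 0.372 with exosomes and 0.353, 0.361 and 0.357 with PBS (exact permutation test, two-sided p = 0.1, the smallest possible). Hlf, the remaining activator of the family, was 12.6 ± 1.56 FPKM with exosomes and 9.75 ± 2.18 with PBS (SD, n = 3 each). Its change of 0.35 ± 0.14 did not pass (limma adjusted p = 0.0789), but it did without PBS replicate 3 (0.51, adjusted p = 0.00348).

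Arntl encodes the activator that drives the loop and is the best known target of the REV-ERB repressors. It was 3.45, 3.39 and 3.35 FPKM with exosomes and 3.37, 3.21 and 2.92 FPKM with PBS, and PBS replicate 1 lay inside the exosome range. The log2 change was 0.08 ± 0.06 (limma adjusted p = 0.345), so no difference in Arntl was detectable beside the fall of both REV-ERB genes. The ratio of Nr1d1 to Arntl was 1.57, 1.67 and 1.79 with exosomes and 3.70, 3.66 and 4.29 with PBS. That of Nr1d1 to Dbp was 1.55, 1.46 and 1.69 with exosomes and 4.60, 3.81 and 5.51 with PBS. Neither ratio overlapped between groups, with an exact permutation p of 0.1 each (two-sided), the smallest possible. Every exosome library was lower in Nr1d1 and higher in Dbp than every PBS library. The result for the ratio of Nr1d1 to Dbp was thus fixed by those values and adds nothing to them. Over the 5 ratios tested, which were not among the planned tests, no adjusted p was below 0.125, and by the design none could be below 0.1. The promoter of the second of 2 Arntl start sites (chr7:113207261-113207560, plus strand) is shown because it held the only RORE core among the 12 windows, at position 31 after the start, against 6.48% of all windows.
Arntl: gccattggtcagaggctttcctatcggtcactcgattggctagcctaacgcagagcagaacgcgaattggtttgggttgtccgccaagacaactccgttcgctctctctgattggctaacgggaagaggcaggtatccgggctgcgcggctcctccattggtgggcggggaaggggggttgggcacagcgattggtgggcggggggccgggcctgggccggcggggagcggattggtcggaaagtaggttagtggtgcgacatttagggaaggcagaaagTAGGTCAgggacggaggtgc

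**Figure D2:**
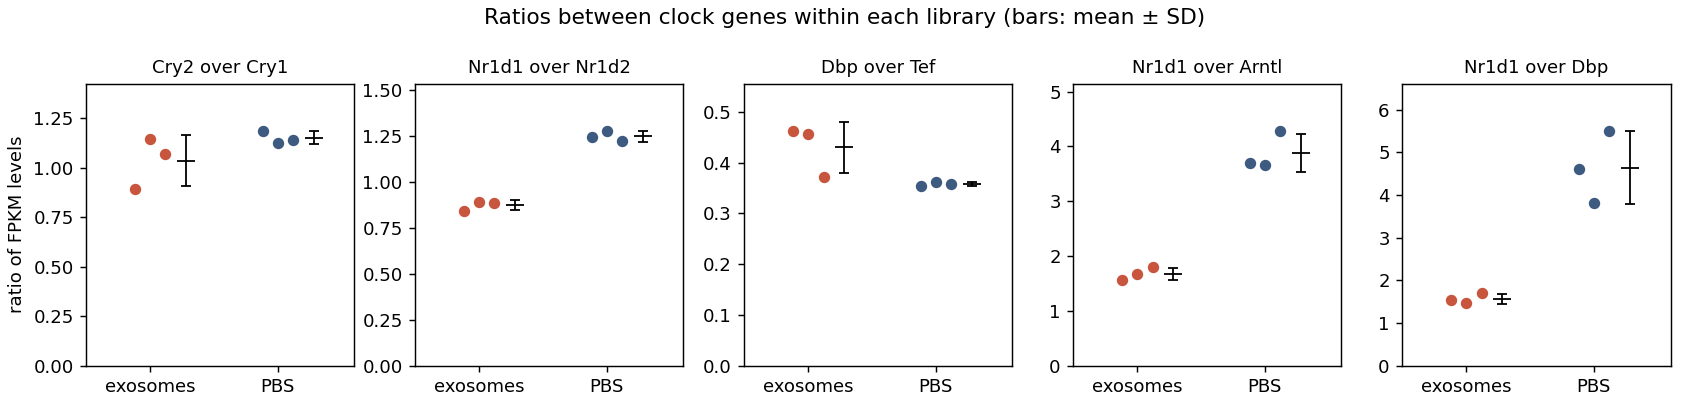
Ratio of FPKM levels between a pair of clock genes (vertical axes, from 0) in each of 3 exosome and 3 PBS libraries, with the mean ± SD. Nr1d1 over Nr1d2 lies at 0.842 to 0.891 with exosomes and 1.22 to 1.28 with PBS, and Cry2 over Cry1 overlaps.

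By level, the order of the 10 genes in exosome-treated cells ran from Tef, Nr1d2, Per1, Cry2, Cry1 and Nr1d1 to Dbp, Arntl, Per2 and Per3. Means were 8.53 FPKM for Tef and 1.98 FPKM for Per3, and Nr1d2, Per1, Cry2, Cry1 and Nr1d1 overlapped their neighbours in that order, as did Per2 and Per3. In PBS-treated cells the order was Nr1d1, Nr1d2, Tef, Cry2, Cry1, Per1, Arntl, Dbp, Per2 and Per3, with means of 12.2 FPKM for Nr1d1 and 1.64 FPKM for Per3. There Tef overlapped Cry2, Arntl overlapped Dbp and Per2 overlapped Per3. Dbp stood above Arntl in every exosome library. All 10 genes lay in the lower part of the tested range, at percentiles of mean level from 7.7 for Per3 to 46.9 for Nr1d1.

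**Figure D3:**
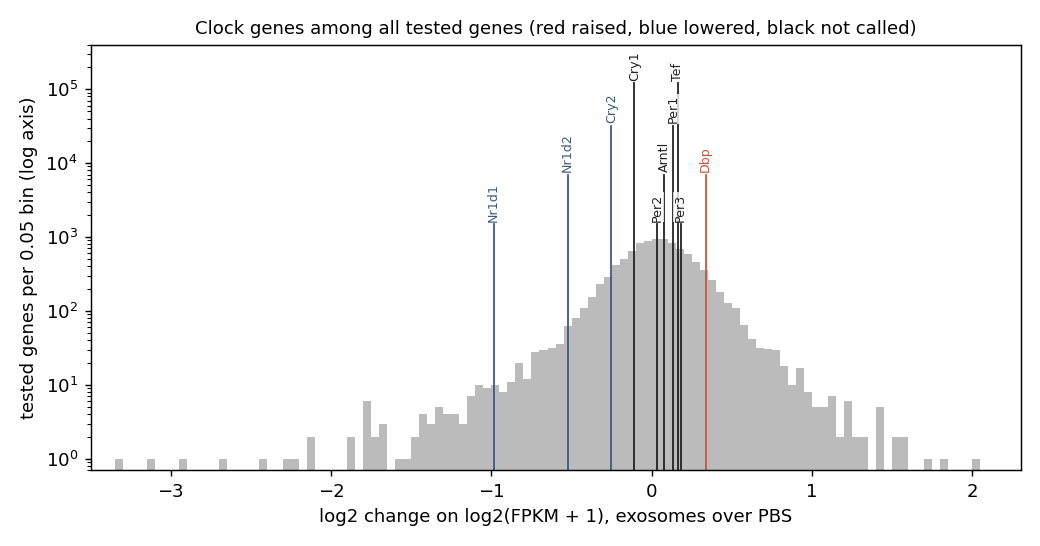
Histogram of log2 changes, exosomes over PBS, of all 10274 tested genes (grey, log count axis), with a line for each clock gene. Nr1d1 at -0.99 and Nr1d2 at -0.52 lie in the lower tail and Dbp at 0.34 on the upper flank, while the genes that did not pass lie near the centre.

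The same 4 genes were called on the recovered reads and in the authors' deposited table, all in the same direction. Over all genes the reads called 45.7% of 7220 genes, 23.1% raised and 22.6% lowered, and the authors' deposited table called 25.9% of 15844 genes, 12.4% raised and 13.5% lowered. These are readings of the same libraries and not separate experiments. The reads were recovered from the authors' group means, whose ratio is the authors' fold, so the sizes of change on these scales had to be close.

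**Figure D4:**
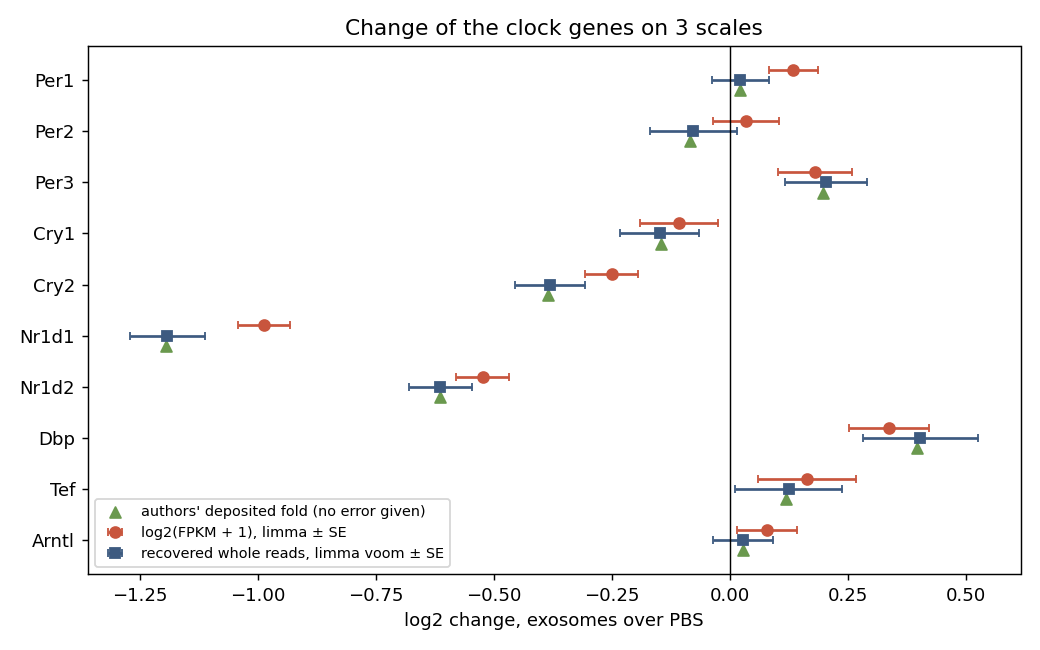
Log2 change, exosomes over PBS, of each clock gene from log2(FPKM + 1) (circles ± SE), recovered whole reads (squares ± SE) and the authors' deposited fold (triangles, without error). Reads and the authors' fold nearly coincide by construction, as the reads were recovered from the group means that give this fold. Nr1d1, Nr1d2, Cry2 and Dbp keep their side on all 3 scales, and Per2 changes sign.

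Among 31 other genes of the loop and of the turnover of its proteins, 24 were tested, of which 8 fell, 2 rose and 14 did not pass (median log2 change -0.06), beside 18.4% lowered and 25.4% raised over all tested genes and 43.8% called in either direction. The share called in this list, 10 of 24, is thus near that of all genes in this fit. The recovered reads covered 15 of these genes, of which 9 fell and 2 rose (limma voom). Over all genes the reads called 22.6% lowered and 23.1% raised. The strongest fall was in Bhlhe40, which encodes DEC1, an E-box repressor induced by ARNTL and CLOCK and also by serum and hypoxia: 11.5 ± 0.259 FPKM with exosomes and 33.0 ± 2.29 with PBS (SD, n = 3 each; log2 change -1.44 ± 0.06, limma adjusted p = 4.84e-07). Ciart, which encodes the repressor CHRONO, was 0.809 ± 0.133 FPKM with exosomes, against 1.46 ± 0.199 with PBS (-0.44 ± 0.09, limma adjusted p = 0.003). Every exosome value of Ciart was under 1 FPKM, so the gene passed the filter only through its higher PBS values. Clock, the partner of Arntl, fell to 5.55 ± 0.297 FPKM with exosomes, against 7.06 ± 0.198 with PBS (-0.30 ± 0.06, limma adjusted p = 0.00264). Usp2, a deubiquitinase of clock proteins, was 1.98 ± 0.0356 FPKM with exosomes and 2.84 ± 0.356 with PBS (limma adjusted p = 0.00478).

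Wdr5, Csnk2a2, Prkaa1 and Rora made up the other falls, by 0.20 to 0.25 on the log2 scale. Rora encodes the activator that competes with REV-ERB for ROREs. Its level was 2.16 ± 0.178 FPKM with exosomes and 2.69 ± 0.272 with PBS (limma adjusted p = 0.04), and leaving out any library other than PBS replicate 2 ended the call (adjusted p up to 0.135). The call of Prkaa1, an AMP kinase subunit gene, ended without exosome replicate 2 (0.0572) and without PBS replicate 1 (0.0742).

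The genes that rose were Nfil3, the D-box repressor that opposes Dbp and Tef, and Btrc, an F-box gene for the breakdown of PER proteins. Nfil3 was 8.17 ± 0.307 FPKM with exosomes and 6.31 ± 0.983 with PBS (SD, n = 3 each; 0.34 ± 0.09, limma adjusted p = 0.0136, and 0.0515 without exosome replicate 1). Btrc changed by 0.20 ± 0.06 (limma adjusted p = 0.0197), a call that ended without exosome replicate 1 (0.053), without exosome replicate 2 (0.0605) and without PBS replicate 1 (0.0564). Bhlhe41, Npas2 and Arntl2 were below the filter. Bhlhe41 stood at 0.607 ± 0.167 FPKM with exosomes and 0.949 ± 0.0921 with PBS, Npas2, a paralog of Clock, at 0.252 ± 0.0314 with exosomes and 0.161 ± 0.0387 with PBS, and Arntl2 at 0.81 ± 0.0885 with exosomes and 0.786 ± 0.167 with PBS. Rorb was at 0 in every library.

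Of 15 genes outside the core loop that are known to cycle in mouse organs or fibroblasts, 13 were tested, 8 fell, 2 rose and 3 did not pass (median log2 change -0.37), beside 18.4% lowered and 25.4% raised over all tested genes. Usp2, Hlf and Nfil3 also belong to the preceding list. Noct, which encodes the phosphatase nocturnin, fell to 2.97 ± 0.409 FPKM with exosomes, against 8.21 ± 0.827 with PBS (SD, n = 3 each; -1.21 ± 0.09, limma adjusted p = 1.06e-05). Tspan4, a tetraspanin gene, was 19.8 ± 1.10 FPKM with exosomes and 29.6 ± 1.07 with PBS (limma adjusted p = 5.47e-05). Nampt, the NAD salvage enzyme, was 18.5 ± 0.728 FPKM with exosomes and 25.7 ± 0.963 with PBS (limma adjusted p = 0.000141). Wee1, a kinase that delays mitosis, was 5.80 ± 0.583 FPKM with exosomes and 8.12 ± 0.194 with PBS (limma adjusted p = 0.000957). Pim3, Cdkn1a and Por fell as well. Tsc22d3, the glucocorticoid-induced leucine zipper gene, rose to 9.35 ± 0.644 FPKM with exosomes, against 5.41 ± 0.0803 with PBS (0.69 ± 0.06, limma adjusted p = 2.85e-05).

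**Figure D5:**
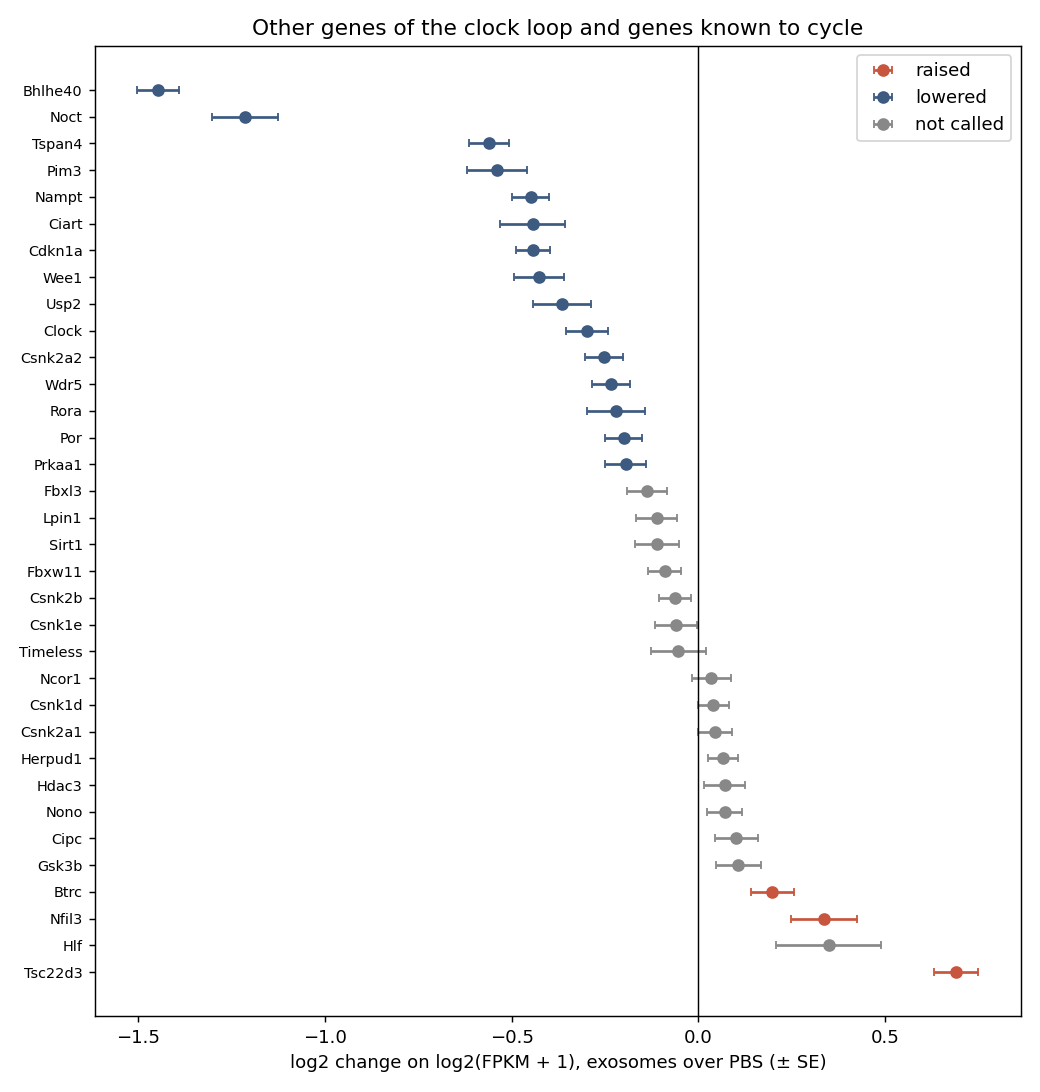
Log2 change, exosomes over PBS (± SE), of the 34 tested genes of the loop list and the cycling list together. Of these 15 fell, 3 rose and 16 did not pass, with Bhlhe40 and Noct lowest and Tsc22d3 highest.

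Serum, cAMP and glucocorticoids are known to reset the fibroblast clock, and their response genes were counted too. Over all tested genes 18.4% were lowered and 25.4% raised, with a median log2 change of 0.04. Of 13 tested serum and CRE response genes 9 fell, 1 (Nfil3) rose and 3 did not pass, with a median log2 change of -1.24. Those that did not pass were Fosb (0.001 ± 0.089), Sik1 (0.087 ± 0.054) and Nr4a2 (-0.274 ± 0.173). Their limma adjusted p values were 0.9936, 0.2155 and 0.2321, and Nr4a2 was called lowered without PBS replicate 2 (-0.45, adjusted p = 0.0292). Among the genes of this list that fell, Egr2 and Arc were under 1 FPKM in every exosome library. They passed the filter only through their higher PBS values, which also lowers the median. With no filter on low values 15 genes of the list were tested, 9 fell and 1 rose, with a median of -0.7. Fos, an immediate early AP-1 gene, fell to 1.16 ± 0.154 FPKM with exosomes, against 10.5 ± 0.588 with PBS (limma adjusted p = 1.85e-07). Egr1, an immediate early zinc finger gene, fell to 18.7 ± 4.67 FPKM with exosomes, against 82.9 ± 11.5 with PBS (limma adjusted p = 0.000312). Among 9 tested glucocorticoid response genes 7 fell and 2 rose (median -0.50), Tsc22d3 being shared with the cycling list. The genes that rose were Tsc22d3 and Fkbp5, and Fkbp5 stood at 10.2 ± 0.851 FPKM with exosomes and 7.59 ± 0.902 with PBS (SD, n = 3 each; limma adjusted p = 0.00522). Sgk1, a kinase gene, fell to 37.4 ± 0.867 FPKM with exosomes, against 66.0 ± 3.75 with PBS, and Klf9, a zinc finger gene, to 21.3 ± 0.746 with exosomes, against 30.2 ± 1.35 with PBS (limma adjusted p = 4.29e-06 and 9.81e-05). The call of Dusp1 in this list (0.0303) ended without either of exosome replicates 2 and 3 and without either of PBS replicates 1 and 3 (adjusted p = 0.0679 to 0.109). The part of these responses in the levels of the clock genes was not tested.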

How the data were processed

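The 6 libraries were made with a stranded mRNA kit and sequenced from both ends, per the labels' protocols. Tools listed in the submitters' processing notes are Trimmomatic, SAMtools, HISAT2, DESeq, Cufflinks, Bowtie2, HTSeq and StringTie, with mm9 as build and no versions, roles or order. The authors deposited 1 table with an expression value per library, read here as FPKM because of Cufflinks in the notes and the unequal column sums. The same table holds the authors' mean normalized count signal per group, their linear fold change (ratio), and its p-value before and after adjustment, per the file headers. Columns were assigned by the sample number that each label's description carries, 0 pairs of libraries were identical, and 27 gene names turned into dates were repaired by Entrez identifier.

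A gene was tested when 3 or more libraries reached 1 FPKM, and the fit ran on log2(FPKM + 1) with limma 3.58.1 in R 4.3.3 (trend, robust, group only, two-sided), which was tested on simulated data. Named were all 10 clock genes, of each related list up to 8 called genes of smallest p, the nearest partners and paralogs of the clock genes, and the 5 genes most correlated with the called clock gene of smallest p. Genes of the cell type marker lists fall outside this rule and were named after their values were seen. The same holds for Btrc, Por, Dusp1, Rorb, Fosb, Sik1, Nr4a2, Thra and Sphk2. Some genes that the rule names are not reported here. The clock genes and the lists were chosen with earlier results of these data known.

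The deposited group means of normalized counts are sums of 3 steps, 1 per library. Among genes with a mean under 3 this held for 100% of 2441 exosome means and 2362 PBS means (tolerance 2e-09). From these came size factors of 0.971, 1.112 and 1.054 for exosome and 0.988, 0.973 and 0.923 for PBS replicates 1 to 3. For a larger mean the whole reads were taken as the only combination that gives it within rounding and lies within 25% (or, where several did, 10%) of the split that the FPKM predict. Per1 and Tef with exosomes needed the 10% window, and the other values of the clock genes had 1 solution at 25%. Genes with a mean above 2500 were not solved. Tested genes recovered in both groups (7220) were fitted with limma voom. This alternative was chosen after seeing the data.

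Promoters are from RefSeq (GRCm38.p6) and gene overlaps from GENCODE M21 (GRCm38). The deposited table holds no coordinates.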

Additional observations from a re-analysis of the deposited data

How the results depend on the processing

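Nr1d1, Nr1d2 and Cry2 were called lowered under all 15 alternatives (log2 change -1.19 to -0.96, -0.61 to -0.50 and -0.38 to -0.22). Dbp was called raised under all 14 that tested it (0.25 to 0.45, adjusted p 0.00361 to 0.0457), since at least 5 FPKM in 3 or more libraries removes it and leaves 0 clock genes raised. Without trend and robust estimation 2 clock genes were raised, Per1 being added (adjusted p = 0.0471). Leaving out 1 library gave 1 to 2 raised clock genes, 3 lowered in each case and 3452 to 4469 genes called in all. Per2, which was not called, ran from -0.01 (without PBS replicate 1) to 0.08 when 1 library was left out, and was reversed on recovered reads (-0.08), and the cause was not tested. Same-numbered libraries did not deviate together (correlations -0.12, -0.02 and -0.29). No library correlated best with its own number, so the numbers were not taken as pairs. With a replicate block 3914 genes were called, with 3 clock genes lowered and 1 raised, and Rora (adjusted p = 0.0769), Btrc (0.0509) and Dusp1 (0.081) were no longer called. The median change of all genes was 0.005 to 0.037 in log2 under other scalings. Depth limits the low genes most, above all Dbp.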
